A study of Mus musculus with 12 samples.

Results

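The 5 casein genes of the mouse, Csn1s1, Csn2, Csn1s2a, Csn1s2b and Csn3, were followed in whole mammary glands during lactation and early involution. They were chosen by gene symbol, each symbol had 1 row of its own, and they are 5 of the 37756 gene models in the table. All 5 passed the filter on low values that left 14512 genes for testing. RNA was sequenced from gland tissue of C57BL/6 females in 4 groups of 3 libraries: JNK KO on day 3 of involution, JNK KO on day 0, JNK WT on day 3 and JNK WT on day 0. JNK KO mice were Wap-Cre with LoxP-flanked Mapk8 and Mapk9 on both alleles, and JNK WT mice were Wap-Cre alone, so that both genotypes carried the Cre transgene. Dams had a single pregnancy, nursed a litter and were then weaned by force. Day 0 glands were taken at weaning and day 3 glands 3 days later. The promoter of Wap, itself a milk protein gene, restricts Cre to secretory epithelium, so the other cells of the gland keep both kinase genes. The comparisons ask how far casein RNA declined by day 3 with and without the JNK kinases of the epithelium.

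Caseins are the phosphoproteins that carry calcium and phosphate in milk as micelles. Csn1s1 encodes alpha-S1-casein, Csn2 beta-casein, Csn1s2a and Csn1s2b the alpha-S2-like gamma- and delta-caseins of the mouse, and Csn3 kappa-casein, which sits at the micelle surface and keeps the micelles apart. Csn3 has a separate evolutionary origin from the calcium-sensitive caseins. Prolactin switches casein genes on in secretory alveolar cells through JAK2 and STAT5, together with glucocorticoid receptor, C/EBP-beta and ELF5, and casein RNA is among the most abundant RNA of a lactating gland. After weaning, milk stasis and the loss of prolactin end this program.

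The 5 genes lie on chromosome 5 (GRCm38, with positions of the gene models as the table gives them). Csn1s1 covers chr5:87666224-87682573, Csn2 chr5:87692624-87699421, Csn1s2a chr5:87774567-87788797, Csn1s2b chr5:87808082-87824426 and Csn3 chr5:87925579-87932665. Only Csn2 is on the minus strand in GENCODE M21, which annotates all 5 as protein coding. RefSeq (GRCm38.p6) gives promoter windows for 3 of the 5, from 250 bases before to 50 bases after the start of the transcript. They are shown because the caseins moved together, and because each holds the STAT-type element TTCNNNGAA, printed in capitals. Csn1s1 is chr5:87665958-87666257 (plus strand), Csn2 chr5:87699376-87699675 (minus strand) and Csn1s2a chr5:87774200-87774499 (plus strand).
Csn1s1: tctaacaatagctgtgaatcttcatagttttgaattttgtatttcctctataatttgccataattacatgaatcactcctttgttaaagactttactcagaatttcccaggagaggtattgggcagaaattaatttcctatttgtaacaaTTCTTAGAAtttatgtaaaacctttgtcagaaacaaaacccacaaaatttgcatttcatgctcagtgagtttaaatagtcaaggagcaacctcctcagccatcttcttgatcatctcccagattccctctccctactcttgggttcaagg
Csn2: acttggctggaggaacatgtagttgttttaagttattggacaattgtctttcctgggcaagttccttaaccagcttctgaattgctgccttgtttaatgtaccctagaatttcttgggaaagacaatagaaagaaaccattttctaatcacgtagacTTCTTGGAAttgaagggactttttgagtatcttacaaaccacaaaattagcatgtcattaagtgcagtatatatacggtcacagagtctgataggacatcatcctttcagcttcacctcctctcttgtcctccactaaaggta
Csn1s2a: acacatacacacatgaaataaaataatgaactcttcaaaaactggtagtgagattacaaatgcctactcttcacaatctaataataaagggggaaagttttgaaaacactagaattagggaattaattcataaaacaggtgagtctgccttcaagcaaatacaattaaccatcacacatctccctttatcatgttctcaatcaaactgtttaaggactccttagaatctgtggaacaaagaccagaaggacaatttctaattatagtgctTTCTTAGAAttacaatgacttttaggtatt

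The element, which reads the same on both strands, begins at position -100 in Csn1s1, at -93 in Csn2 and at 21 in Csn1s2a, counted from the first transcribed base of RefSeq. The Csn1s2a model of the table starts 117 bases downstream of the RefSeq start, so that its element lies before the start used for the FPKM. TTCNNNGAA was found in 8.30% of all 32851 promoter windows of this length. The glucocorticoid receptor half-site (TGTTCT or, on the other strand, AGAACA) was found in 19.0% of all windows and, among the 3 caseins, in Csn1s2a alone, at position -59. The AP1 element TGACTCA (or, on the other strand, TGAGTCA), to which JUN and FOS proteins bind, was in 5.20% of windows and in 0 of the 3, and the C/EBP element TTGCNNAA (or, on the other strand, TTNNGCAA) in 10.8% and in 0 of the 3. No 2 of the matches in the casein windows overlapped. A match describes the letters of the window and does not show that a factor binds there.

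Levels are FPKM (fragments per kilobase of exon, scaled to the mapped fragments of each library), so that they describe shares of a library. The caseins made up 64.9% to 77.5% of the FPKM of a day 0 library over gene models of at least 200 bp and 46.45% to 68.7% over all models, and the log2 change by day 3 of the median gene, of 14512, was 1.68 in JNK KO and 2.37 in JNK WT glands. Between JNK KO and JNK WT glands the median gene differed by -0.48 (day 3) and 0.18 (day 0). Each comparison is also given after median ratio scaling, which sets the typical gene of every library to the same level. The targeted genes were low throughout. Mapk8 had 1.25, 3.57 and 2.79 FPKM in JNK KO glands on day 3, below the 7.90, 7.37 and 6.57 FPKM of JNK WT glands (adjusted p = 0.051 by limma), and Mapk9 had 5.26, 10.5 and 10.03 FPKM in JNK KO glands against 17.8, 18.1 and 16.1 FPKM in JNK WT glands (adjusted p = 0.20). On day 0 the genotypes overlapped for both genes, so that the levels of the targeted genes did not separate the labelled genotypes at that stage. A value for the whole gene counts reads outside the deleted part, and cells without Cre keep the gene. Library 1 of JNK WT day 0 stood apart from the other two of its group in genes beyond the caseins: Atp2b2, a calcium pump, had 6.12 FPKM there against 68.6 and 82.8 FPKM, Slc34a2, a phosphate transporter, 50.8 FPKM against 355.5 and 400.8 FPKM, and Nfib, a transcription factor, 1.64 FPKM against 15.2 and 14.95 FPKM. Without it the median gene differed by -0.057 in place of 0.18 between JNK KO and JNK WT glands on day 0. Some casein results are given without it below, while ratios of mean FPKM and the tests of other genes include it. Luminal markers (8 genes, among them Krt8 and Krt18) summed to 778 to 1351 FPKM in JNK KO and 1012 to 1086 FPKM in JNK WT glands on day 3. None of the 8 passed the test between genotypes on day 3, where 5.62% of all genes were called lower and 0.544% higher. With so few genes called, this does not show that the luminal part of the glands was equal. All 8 were called higher on day 3 in each genotype as deposited, where 80.0% of all genes were in JNK KO and 91.5% in JNK WT glands. After scaling 5 of the 8 were higher in JNK KO glands (11.3% of all genes were) and 4 of the 8 in JNK WT glands (19.1% of all genes were). Their sums on day 0 were 81.7 to 125 FPKM in JNK KO and 66.1 to 138 FPKM in JNK WT glands.

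Casein RNA of JNK KO glands had declined by day 3, and every casein was lower in all 3 day 3 libraries than in any day 0 library. Csn1s1 had 37449, 14421 and 12871 FPKM on day 3, against 133746, 143047 and 150056 FPKM on day 0. Csn1s2a had 75188, 22217 and 17534 FPKM on day 3, against 186458, 184780 and 195122 FPKM on day 0. In both genes library 3 of day 3 was the highest of its group, and the day 0 libraries were close together. Csn1s2b had 19047, 24359 and 11146 FPKM on day 3, against 60175, 70728 and 77947 FPKM on day 0. Here library 4, not library 3, was the highest of day 3. Csn3 had 26667, 20718 and 17202 FPKM on day 3, against 47693, 52250 and 49388 FPKM on day 0. Csn2 had 135880, 71258 and 73288 FPKM on day 3, against 205482, 203107 and 205826 FPKM on day 0. Beta-casein thus kept the highest level of the 5 in each JNK KO library of day 3, and its 3 day 0 libraries differed by little (204805 ± 1481 FPKM, SD, n = 3).

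By limma on log2(FPKM + 0.1), 4 of the 5 caseins were lower on day 3 in JNK KO glands at an adjusted p under 0.05, against 1.37% of all genes tested. All 5 were below without overlap, as were 1.76% of all genes. The log2 fold changes (± SE) were -2.90 ± 0.65 for Csn1s1 (adjusted p = 0.0016), -2.61 ± 0.66 for Csn1s2a (adjusted p = 0.0033), -2.00 ± 0.50 for Csn1s2b (adjusted p = 0.0033) and -1.23 ± 0.43 for Csn3 (adjusted p = 0.019). For Csn2 the change of -1.20 ± 0.62 missed the threshold (adjusted p = 0.089). The median of the 5 was -2.00, beside 1.68 over all genes. After median ratio scaling all 5 were lower (9.87% of all genes were), with changes from -4.68 for Csn1s1 to -2.98 for Csn2 (adjusted p = 0.048 for Csn2). The calls nearest the threshold depended on single libraries. Csn2 passed without library 3 of JNK KO day 3 (-1.50, adjusted p = 0.049) or without library 12 of JNK WT day 3 (adjusted p = 0.048), and Csn3 no longer passed without library 6 of JNK KO day 3 (-1.08, adjusted p = 0.072) or library 2 of JNK KO day 0 (-1.20, adjusted p = 0.054). In bulk tissue, fewer secretory cells and less casein RNA per cell cannot be told apart. Markers of other cells also moved between the days, in a table where most genes were higher on day 3 as deposited (80.0% in JNK KO and 91.5% in JNK WT glands). After scaling 11.3% of all genes were higher in JNK KO and 19.1% in JNK WT glands. Macrophage markers (5 of 5 tested were higher on day 3 in each genotype, on both scales) summed to 240 to 609 FPKM on day 3 and 22.6 to 41.3 FPKM on day 0 in JNK KO glands, and to 667 to 1575 FPKM on day 3 and 24.9 to 48.4 FPKM on day 0 in JNK WT glands. Fibroblast markers, 5 of 5 higher in each genotype as deposited and 0 of 5 in JNK KO and 5 of 5 in JNK WT glands after scaling, summed to 207 to 453 FPKM on day 3 and 35.6 to 60.5 FPKM on day 0 in JNK KO glands, and to 401 to 1189 FPKM on day 3 and 25.4 to 50.9 FPKM on day 0 in JNK WT glands. Adipocyte markers were all 6 higher in each genotype as deposited, and 0 of 6 in JNK KO and 4 of 6 in JNK WT glands after scaling. Of 4 tested skeletal muscle markers, 3 were lower on day 3 in JNK KO glands and 4 higher in JNK WT glands as deposited, and after scaling 1 was lower in JNK KO glands and none was called in JNK WT glands. The part of these cells in the casein values was not tested.

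In JNK WT glands the decline was called for all 5 caseins. Csn1s1 had 2649, 10359 and 11534 FPKM on day 3, against 93206, 176442 and 135783 FPKM on day 0. Csn1s2a had 4770, 15168 and 14200 FPKM on day 3, against 251049, 201127 and 183676 FPKM on day 0. Csn1s2b had 3492, 4613 and 5518 FPKM on day 3, against 164036, 76812 and 59377 FPKM on day 0. Library 12 was the lowest of day 3 in each of these genes, while library 1 of day 0 was the highest for Csn1s2a and Csn1s2b and the lowest for Csn1s1. Csn2 had 9525, 33923 and 33962 FPKM on day 3, against 151448, 160957 and 183005 FPKM on day 0. Csn3 had 9741, 13448 and 16106 FPKM on day 3, against 55541, 33457 and 48034 FPKM on day 0. Kappa-casein thus had the narrowest gap between the days of the 5.

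All 5 passed the test in JNK WT glands, where 1.34% of all genes were lower, and all 5 were below without overlap, as were 1.23% of all genes. The log2 fold changes were -4.38 ± 0.66 for Csn1s2a (adjusted p = 5.5e-05), -4.35 ± 0.50 for Csn1s2b (adjusted p = 9.6e-06), -4.26 ± 0.65 for Csn1s1 (adjusted p = 6.0e-05), -2.89 ± 0.62 for Csn2 (adjusted p = 0.00075) and -1.80 ± 0.43 for Csn3 (adjusted p = 0.0016). Their median was -4.26, beside 2.37 over all genes. As ratios of mean FPKM, with library 1 of day 0 included, day 0 was 22.04 times day 3 for Csn1s2b, 18.6 times for Csn1s2a, 16.5 times for Csn1s1, 6.40 times for Csn2 and 3.49 times for Csn3. In JNK KO glands day 0 was 3.83 times day 3 for Csn1s2b, 4.93 times for Csn1s2a, 6.59 times for Csn1s1, 2.19 times for Csn2 and 2.31 times for Csn3. After scaling the JNK WT changes ran from -6.89 for Csn1s2a to -4.31 for Csn3, all called (16.4% of all genes were lower). Without library 1 of day 0, the change of Csn1s2b, for which that library was far above the other two, was -3.92 (adjusted p = 4.3e-05). Each of the 5 calls in JNK WT glands held under all 23 alternatives tried, with adjusted p of at most 0.048.

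**Figure D1:**
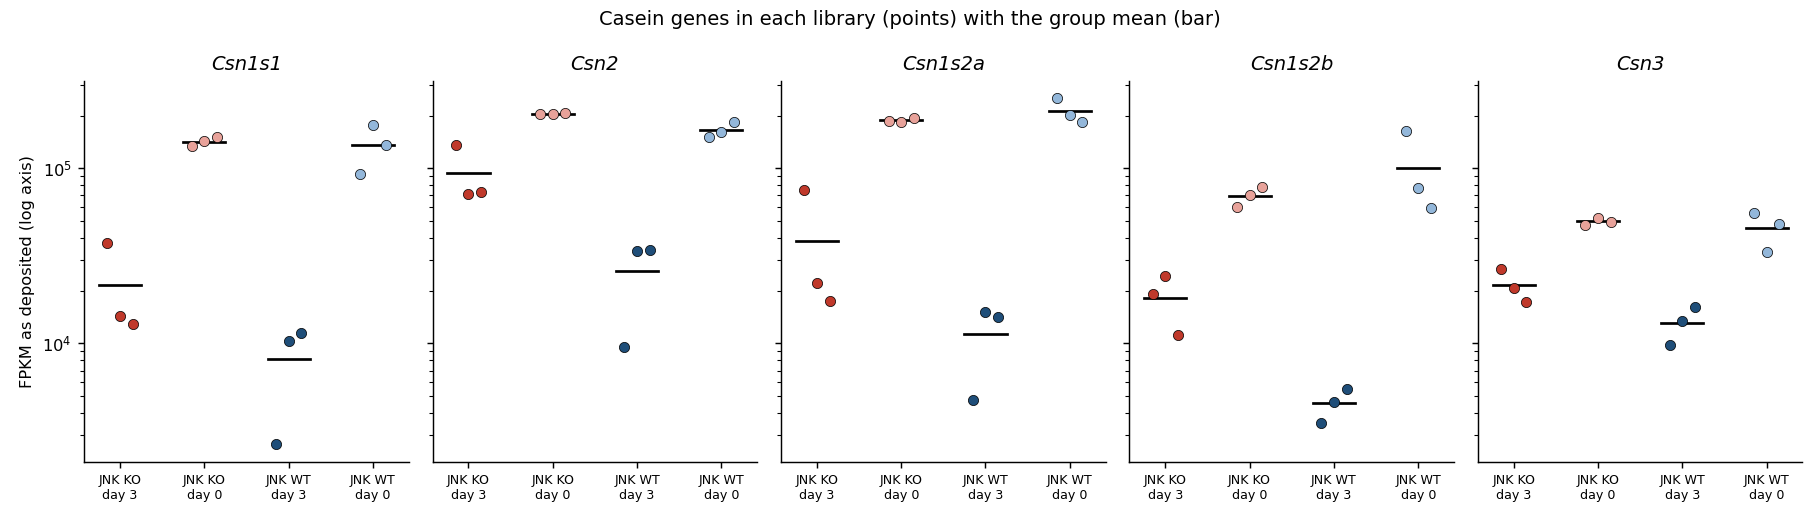
FPKM of each casein (panels, log axis) in the 3 libraries of each group (points) with the group mean (bar). Every casein was lower on day 3 than on day 0 in both genotypes, and on day 3 the 3 JNK KO libraries sat above the 3 JNK WT libraries in every panel.

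On day 3 each casein was higher in all 3 JNK KO libraries than in any JNK WT library, but 1 of the 5 differences passed the test. Csn1s2b averaged 18184 ± 6649 FPKM in JNK KO glands and 4541 ± 1015 FPKM in JNK WT glands (SD, n = 3 each), a log2 difference of 1.95 ± 0.50 (adjusted p = 0.042). Csn2 averaged 93475 ± 36738 FPKM in JNK KO and 25803 ± 14097 FPKM in JNK WT glands, a difference of 2.01 ± 0.62 (adjusted p = 0.077). Csn1s2a averaged 38313 ± 32021 FPKM in JNK KO and 11379 ± 5744 FPKM in JNK WT glands (1.61 ± 0.66, adjusted p = 0.16), and Csn1s1 21580 ± 13765 FPKM in JNK KO and 8181 ± 4827 FPKM in JNK WT glands (1.49 ± 0.65, adjusted p = 0.18). Csn3 had the narrowest difference, with 21529 ± 4785 FPKM in JNK KO and 13098 ± 3197 FPKM in JNK WT glands (0.72 ± 0.43, adjusted p = 0.30). Its highest JNK WT library, at 16106 FPKM, lay just below its lowest JNK KO library, at 17202 FPKM. The uncalled differences moved with single libraries of day 3. That of Csn1s1 was 0.80 without library 12 of JNK WT and 1.87 without library 6 of JNK WT, and that of Csn1s2a 0.97 without library 3 of JNK KO and 2.02 without library 6 of JNK KO (adjusted p from 0.12 to 0.55 over these 4).

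Of all genes, 0.544% were called higher in JNK KO glands on day 3 and 2.81% were above without overlap. The median difference of the 5 caseins was 1.61, beside -0.48 over all genes. After median ratio scaling the differences of the 5 ran from 1.23 for Csn3 to 2.51 for Csn2 and all 5 still did not overlap, but 17.3% of all genes then lay above without overlap, 0.338% were called higher, and none of the caseins was called (Csn1s2b 2.46 ± 0.77, adjusted p = 0.17). The call of Csn1s2b also rested on single libraries. It was lost on leaving out any of the 6 libraries of day 3 except library 6 of JNK KO (adjusted p from 0.097 to 0.14), any of the 3 JNK KO libraries of day 0 (adjusted p from 0.054 to 0.065) or library 3 of JNK WT day 0 (adjusted p = 0.051). Some markers of other cells were also called in this comparison, and other lists had none called. Of 6 myoepithelial, 4 endothelial and 4 lymphocyte markers tested, 0 were called. Of all genes, 5.62% were called lower in JNK KO glands on day 3 as deposited and 0.117% after scaling. On day 3, adipocyte markers (6 genes, 2 of them called lower) summed to 964 to 3195 FPKM in JNK KO and 3255 to 7142 FPKM in JNK WT glands. Macrophage markers (5 tested, 0 called) summed to 240 to 609 FPKM in JNK KO and 667 to 1575 FPKM in JNK WT glands. Fibroblast markers (5 genes, 1 called lower) summed to 207 to 453 FPKM in JNK KO and 401 to 1189 FPKM in JNK WT glands, and skeletal muscle markers (4 tested, 4 called lower) to 1.52 to 98.1 FPKM in JNK KO and 397 to 6411 FPKM in JNK WT glands. After scaling none of these was called, and none of the listed markers was at 0 throughout a group. Their part in the casein values was not tested.

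**Figure D2:**
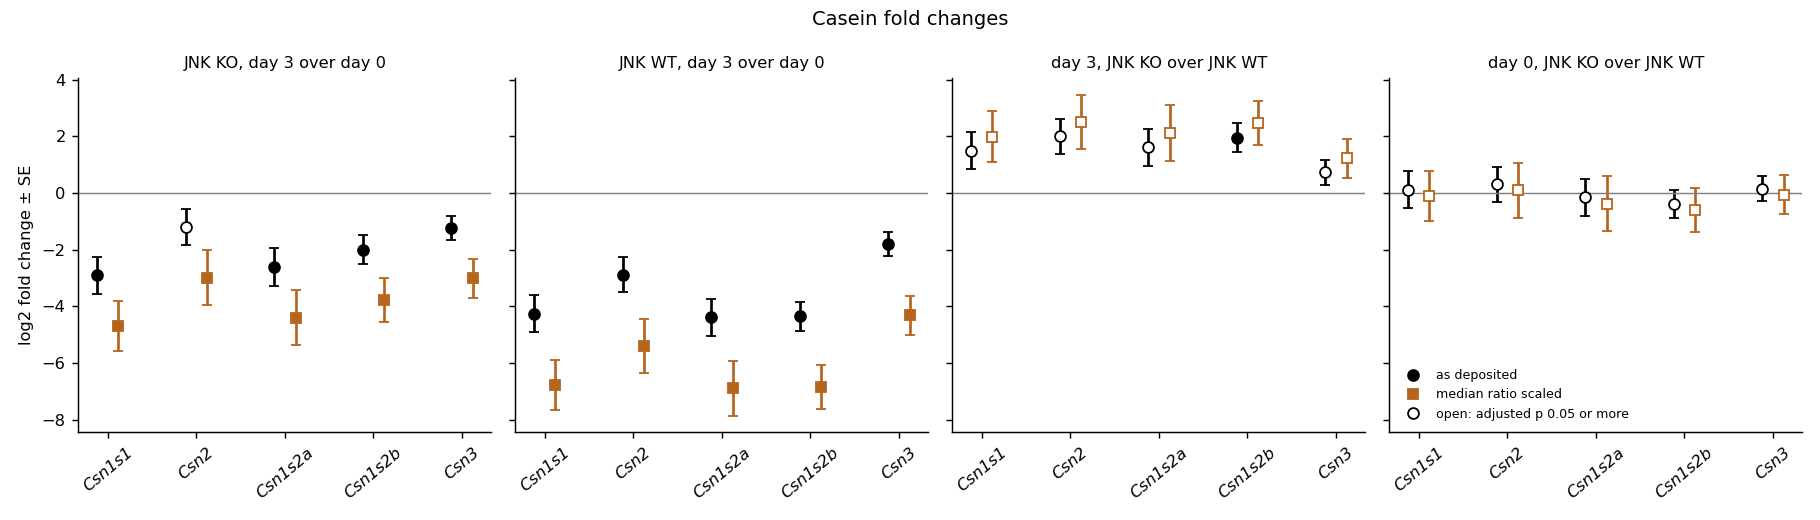
log2 fold change (± SE, limma) of each casein in 4 comparisons, as deposited (circles) and after median ratio scaling (squares); open symbols have an adjusted p of 0.05 or more. The 5 caseins lie below 0 between days in both genotypes, above 0 for JNK KO over JNK WT on day 3, and within 1 SE of 0 on day 0.

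At weaning no casein differed between the genotypes by more than the test could call. On day 0 Csn1s1 averaged 142283 ± 8182 FPKM in JNK KO and 135144 ± 41622 FPKM in JNK WT glands, and Csn1s2a 188787 ± 5550 FPKM in JNK KO and 211951 ± 34966 FPKM in JNK WT glands. Csn1s2b averaged 69617 ± 8938 FPKM in JNK KO and 100075 ± 56074 FPKM in JNK WT glands, where library 1 alone stood at 164036 FPKM. Without that library the difference of Csn1s2b was 0.036 and that of Csn1s1 -0.12, each turning sign. Csn3 averaged 49777 ± 2303 FPKM in JNK KO and 45677 ± 11229 FPKM in JNK WT glands. The differences of these 4 genes lay between -0.39 and 0.15 (adjusted p of 0.83 or more). Csn2 was above in all 3 JNK KO libraries (204805 ± 1481 FPKM, against 165137 ± 16188 FPKM in JNK WT glands), as were 4.05% of all genes, with a difference of 0.32 ± 0.62 (adjusted p = 0.88), and its libraries overlapped after scaling. None of the 5 was called on day 0 by limma, against 0.0138% of all genes with and without scaling, and none at an unadjusted p under 0.05. The JNK WT libraries spread more widely than the JNK KO libraries in each of the 5 genes.

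The difference between the 2 declines was tested as an interaction. No casein passed (0.0138% of all genes did, with and without scaling). The change of JNK KO minus that of JNK WT was 2.35 ± 0.71 for Csn1s2b (adjusted p = 0.13), 1.77 ± 0.93 for Csn1s2a (adjusted p = 0.31), 1.69 ± 0.87 for Csn2 (adjusted p = 0.30), 1.37 ± 0.92 for Csn1s1 (adjusted p = 0.38) and 0.57 ± 0.60 for Csn3 (adjusted p = 0.55). Csn1s2b was the 1 casein with an unadjusted p under 0.05 (0.0065). Without library 1 of JNK WT day 0 its estimate was 1.92 (adjusted p = 0.21). Leaving out single libraries moved 4 of the 5 by more than 1.5 times. Without library 12 of JNK WT day 3 the estimate was 0.68 for Csn1s1, 1.08 for Csn2 and 0.37 for Csn3, and without library 3 of JNK KO day 3 it was 1.12 for Csn1s2a, 0.88 for Csn1s1 and 0.40 for Csn3. The declines of the caseins in the 2 genotypes were thus not shown to differ, although every estimate was above 0.

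Summed, the 5 caseins made up 34.5%, 18.7% and 18.7% of all FPKM (gene models of at least 200 bp) in JNK KO glands on day 3, against 64.9%, 65.6% and 75.5% on day 0. In JNK WT glands they made up 4.75%, 13.1% and 11.8% on day 3, against 71.6%, 77.5% and 65.5% on day 0. The groups did not overlap between days in either genotype, nor between genotypes on day 3. The mean difference was -44.7 percentage points between days in JNK KO and -61.6 in JNK WT glands, and 14.1 for JNK KO minus JNK WT on day 3, each with an exact two-sided permutation p of 0.1, the smallest that 3 against 3 libraries allow. On day 0 the means were 68.7 ± 5.9% in JNK KO and 71.5 ± 6.0% in JNK WT glands (exact permutation p = 0.6, n = 3 each). The difference on day 3 was 8.83 points without library 3 of JNK KO, whose share was the highest of that group. Without library 12 of JNK WT, whose share was the lowest, it was 11.5 points (exact permutation p = 0.3). Without any other library of day 3 the exact permutation p stayed at 0.1. Over all gene models, including those under 200 bp, the shares were 24.4%, 8.29% and 5.01% in JNK KO and 1.19%, 4.32% and 3.82% in JNK WT glands on day 3, still without overlap, and the difference was 9.45 points (exact permutation p = 0.1). On day 0 they were then 51.95 ± 6.20% in JNK KO and 59.1 ± 8.4% in JNK WT glands (exact permutation p = 0.4, n = 3 each).

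The order of the caseins changed with the day. In JNK KO glands on day 3 the order of the means was Csn2, Csn1s2a, Csn1s1, Csn3 and Csn1s2b. The ranges of all neighbours overlapped, and Csn1s1 and Csn3 were nearly equal (21580 and 21529 FPKM). Within each of the 3 libraries, however, Csn2 lay above Csn1s2a and Csn1s2a above Csn1s1. On day 0 it was Csn2, Csn1s2a, Csn1s1, Csn1s2b and Csn3, and no neighbours overlapped. In JNK WT glands on day 3 the order was Csn2, Csn3, Csn1s2a, Csn1s1 and Csn1s2b, with overlap of all neighbours, although Csn1s2a lay above Csn1s1 within each of the 3 libraries. On day 0 it was Csn1s2a, Csn2, Csn1s1, Csn1s2b and Csn3, where Csn1s2a lay apart from Csn2 and Csn1s2b from Csn3, while Csn2, Csn1s1 and Csn1s2b overlapped in turn. By the mean, kappa-casein thus stood last of the 5 on day 0 in both genotypes and second in JNK WT glands on day 3. In that group Csn2 lay above Csn3 in 2 of the 3 libraries, and Csn3 above Csn1s2a in 2 of the 3.

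Shares of the casein pool do not depend on how libraries are scaled. Csn2 took 49.4 ± 5.3% of summed casein FPKM in JNK KO glands on day 3, against 31.3 ± 1.1% on day 0, and 39.0 ± 6.5% in JNK WT glands on day 3, against 25.3 ± 4.4% on day 0 (SD, n = 3 each). Csn1s1 took 10.6 ± 1.8% in JNK KO glands on day 3, against 21.7 ± 0.5% on day 0, and 12.1 ± 2.9% in JNK WT glands on day 3, against 20.8 ± 7.2% on day 0. Csn3 took 9.06%, 13.5% and 13.03% in JNK KO glands on day 3, against 7.53%, 7.99% and 7.28% on day 0. In JNK WT glands Csn3 took 32.3%, 17.3% and 19.8% on day 3, against 7.77%, 5.16% and 7.88% on day 0. Every JNK WT library of day 3 thus gave a larger part of its casein RNA to Csn3 than any JNK KO library did.

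The mix was tested as log2 ratios to Csn2 within each library, with an exact permutation of day within genotype or of genotype within day (12 libraries, smallest possible p 0.005, 8 tests adjusted together). Over both genotypes Csn1s1 to Csn2 was lower on day 3 (mean log2 difference -1.54, adjusted p = 0.02), as was Csn1s2a to Csn2 (-1.45, adjusted p = 0.02). Csn1s1 stood at 0.276, 0.202 and 0.176 of Csn2 in JNK KO glands on day 3, against 0.651, 0.704 and 0.729 on day 0, and at 0.278, 0.305 and 0.340 in JNK WT glands on day 3, against 0.615, 1.10 and 0.742 on day 0. Day 3 lay below day 0 without overlap in both genotypes for each of these 2 ratios. Csn1s2b to Csn2 differed by -1.13 (adjusted p = 0.07), and passed without library 4 of JNK KO day 3 (-1.33, adjusted p = 0.027). On leaving out other libraries its adjusted p reached 0.11. Csn3 to Csn2 differed by 0.53 between days (adjusted p = 0.13), and by 0.32 without library 12 of JNK WT day 3. Against summed casein in place of Csn2, which moves the size of every ratio, Csn3 was higher on day 3 (1.17, adjusted p = 0.02), Csn1s1 (-0.90, adjusted p = 0.04) and Csn1s2a (-0.81, adjusted p = 0.02) were lower, and Csn1s2b did not pass (-0.49, adjusted p = 0.30). Between genotypes no ratio passed: Csn3 to Csn2 was -0.72 (adjusted p = 0.07), Csn1s2a to Csn2 -0.43 (adjusted p = 0.1), Csn1s1 to Csn2 -0.36 (adjusted p = 0.1) and Csn1s2b to Csn2 -0.38 (adjusted p = 0.32). Of these, Csn3 to Csn2 passed without library 2 of JNK WT day 0 (-0.82), Csn1s2a to Csn2 without library 3 of JNK KO day 3 (-0.60) and Csn1s1 to Csn2 without library 1 of JNK WT day 0 (-0.45), each with an adjusted p of 0.013. Over the 12 runs without 1 library, the adjusted p reached 0.15 for Csn3, 0.18 for Csn1s2a and 0.22 for Csn1s1. Csn1s2b to Csn2 was -0.14 without library 1 of JNK WT day 0 and -0.58 without library 4 of JNK KO day 3. Against summed casein the genotype differences were -0.39 for Csn3, -0.098 for Csn1s2a, -0.023 for Csn1s1 and -0.044 for Csn1s2b (adjusted p from 0.30 to 0.93). Csn3 stood at 0.196, 0.291 and 0.235 of Csn2 in JNK KO glands on day 3, against 0.232, 0.257 and 0.240 on day 0, and at 1.02, 0.396 and 0.474 in JNK WT glands on day 3, against 0.367, 0.208 and 0.263 on day 0. The 3 JNK WT libraries of day 3 held the highest ratios of all 12. The difference between the genotypes in the change of Csn3 to Csn2 was -1.12, with a change of -0.03 in JNK KO and 1.09 in JNK WT glands (exact p = 0.12, adjusted p = 0.28 over 7 ratios, a test chosen after the values were seen). It was -0.71 without library 12 of JNK WT day 3 (exact p = 0.20) and -1.34 without library 1 of JNK WT day 0 (exact p = 0.04, not adjusted).

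**Figure D3:**
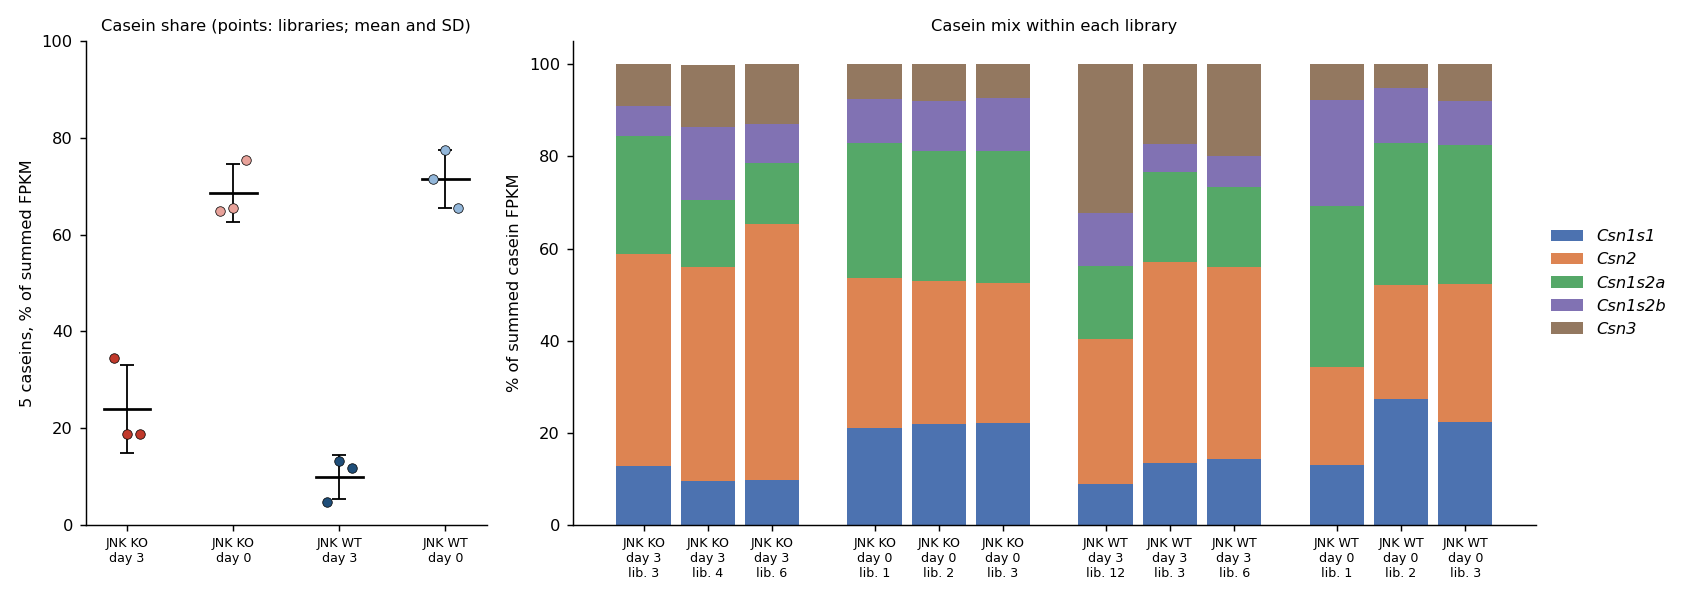
Left, the 5 caseins as a percentage of summed FPKM over gene models of at least 200 bp in each library (points) with mean and SD; right, the share of each casein in the summed casein FPKM of each of the 12 libraries, stacked from Csn1s1 at the bottom to Csn3 at the top. Over these models casein made up 18.7% to 34.5% of JNK KO and 4.75% to 13.1% of JNK WT libraries on day 3 (over all models, not drawn, 5.01% to 24.4% of JNK KO and 1.19% to 4.32% of JNK WT libraries), and the Csn3 band was widest in the JNK WT libraries of day 3.

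Other milk proteins served as a second measure within each library. Wap, whey acidic protein, had 142633, 90769 and 81493 FPKM in JNK KO glands on day 3, against 87221, 115632 and 64246 FPKM on day 0, where it did not pass the test (0.23, adjusted p = 0.75). In JNK WT glands Wap had 4797, 25623 and 22147 FPKM on day 3, against 85052, 53113 and 127809 FPKM on day 0, and fell by 2.58 on the log2 scale (adjusted p = 0.0033). Casein sum per Wap was 2.06, 1.69 and 1.62 in JNK KO glands on day 3, against 7.26, 5.66 and 10.6 on day 0, and 6.29, 3.03 and 3.67 in JNK WT glands on day 3, against 8.41, 12.2 and 4.77 on day 0. Over both genotypes this ratio was lower on day 3 (-1.51, exact permutation over 12 libraries, adjusted p = 0.02 over 6 tests), but in JNK WT glands the libraries of the 2 days overlapped. The 3 JNK KO libraries of day 3 were the lowest of all 12.

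Relative to Lalba, the alpha-lactalbumin of lactose synthase, the casein sum was also lower on day 3. Casein sum per Lalba was 22.1, 23.2 and 17.9 in JNK KO glands on day 3, against 98.3, 102 and 149 on day 0, and 22.01, 41.8 and 40.7 in JNK WT glands on day 3, against 56.4, 110.0 and 90.3 on day 0 (day 3 minus day 0 -1.88, adjusted p = 0.015). Against the geometric mean of Krt8 and Krt18, keratins of luminal cells, the casein sum was lower on day 3 (-5.99, adjusted p = 0.015). This ratio was 1977, 940.0 and 474 in JNK KO glands and 159.9, 469 and 480 in JNK WT glands on day 3, and lay between 24203 and 64871 in all 6 libraries of day 0. Between genotypes none of the 3 ratios passed: the differences were -0.63 to Wap (adjusted p = 0.16), -0.10 to Lalba (adjusted p = 0.75) and 0.78 to the keratins (adjusted p = 0.18). The ratio to Wap passed without library 3 of JNK WT day 0 (-0.82, adjusted p = 0.03), and that to the keratins without library 1 of JNK WT day 0 (0.99, adjusted p = 0.038). On leaving out other single libraries the adjusted p reached 0.29 for Wap and 0.38 for the keratins. The change by day 3 was -2.09 in JNK KO and -0.94 in JNK WT glands for the ratio to Wap, a difference of -1.15 (exact p = 0.12, adjusted p = 0.28 over 7 ratios), and -2.45 in JNK KO and -1.30 in JNK WT glands for the ratio to Lalba, also a difference of -1.15 (exact p = 0.05, adjusted p = 0.28), tests chosen after the values were seen. For the ratio to the keratins the change was -5.225 in JNK KO and -6.751 in JNK WT glands. That difference, 1.526, had the opposite sign and did not pass either (exact p = 0.185, adjusted p = 0.32). It too was tested after the values were seen. On leaving out single libraries the differences ranged from -1.47 to -0.79 for Wap and from -1.46 to -0.88 for Lalba. Wap itself (2.87, adjusted p = 0.032) and Lalba (2.33, adjusted p = 0.016) were higher in JNK KO than in JNK WT glands on day 3 as deposited, where Csn1s2b was the 1 casein to pass. After scaling neither passed (adjusted p = 0.14 for Wap and 0.074 for Lalba).

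**Figure D4:**
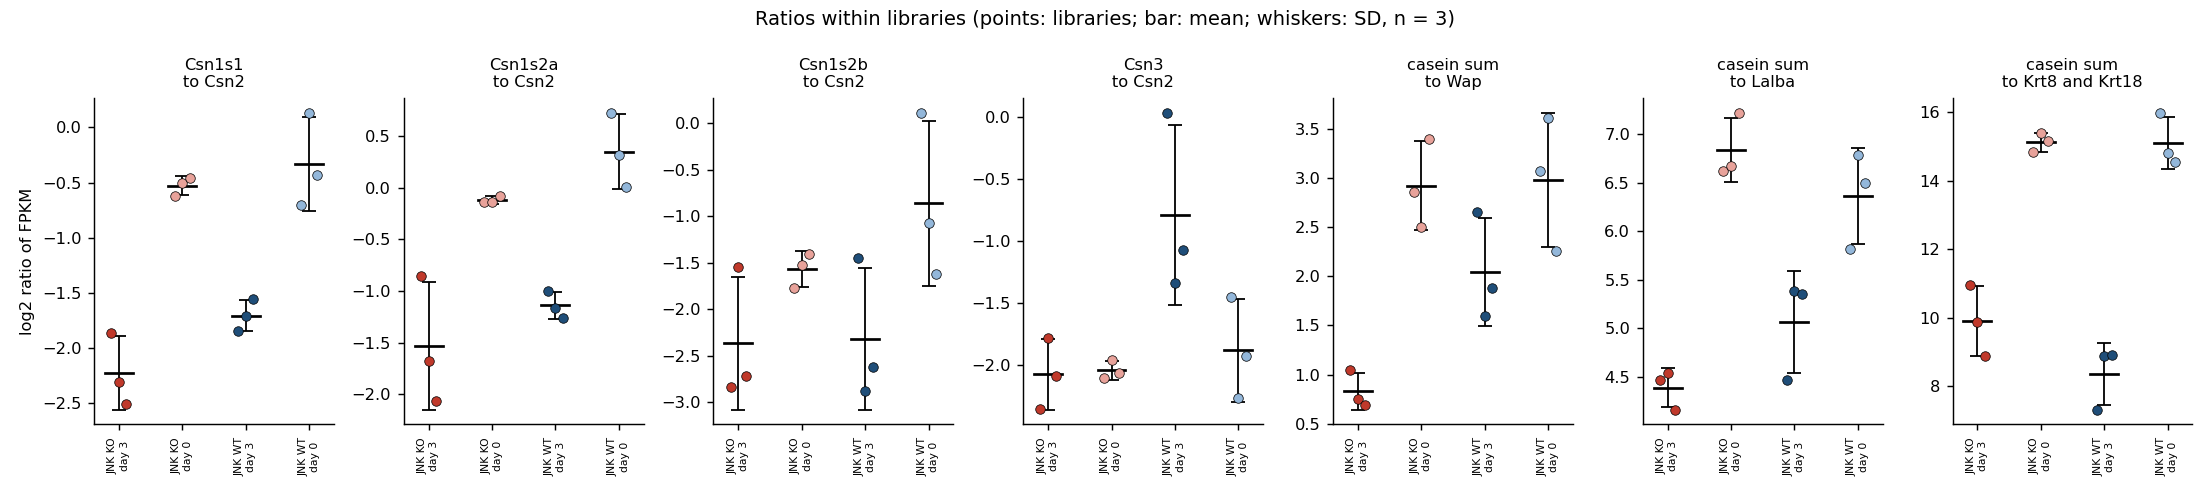
log2 ratios of FPKM within each library, by group, with points for the 3 libraries and mean and SD. Csn1s1 and Csn1s2a lay lower relative to Csn2 on day 3 than on day 0 in both genotypes, and the casein sum per Wap was lowest in the 3 JNK KO libraries of day 3 (1.62 to 2.06).

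The casein genes spanned 266 kb, and within 500 kb on either side of that span the table placed 22 other gene models. Of these, 11 were at 0 in all 12 libraries and 2 had a mean of at least 1 FPKM. Sult1d1, a sulfotransferase, averaged 0.76 ± 0.41 FPKM in JNK KO glands on day 3, against 2.10 ± 0.61 FPKM on day 0, and 0.36 ± 0.06 FPKM in JNK WT glands on day 3, against 3.72 ± 1.45 FPKM on day 0. Prol1 averaged 2.47 ± 1.52 FPKM in JNK KO glands on day 3, against 4.41 ± 2.45 FPKM on day 0, and 0.14 ± 0.11 FPKM in JNK WT glands on day 3, against 1.30 ± 0.03 FPKM on day 0. Between the caseins lay 5 further models, of which Odam, named after its values were seen, was the highest with at most 1.81 FPKM. The caseins themselves averaged 32520 FPKM (Csn3) to 122305 FPKM (Csn2) over the 12 libraries.

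**Figure D5:**
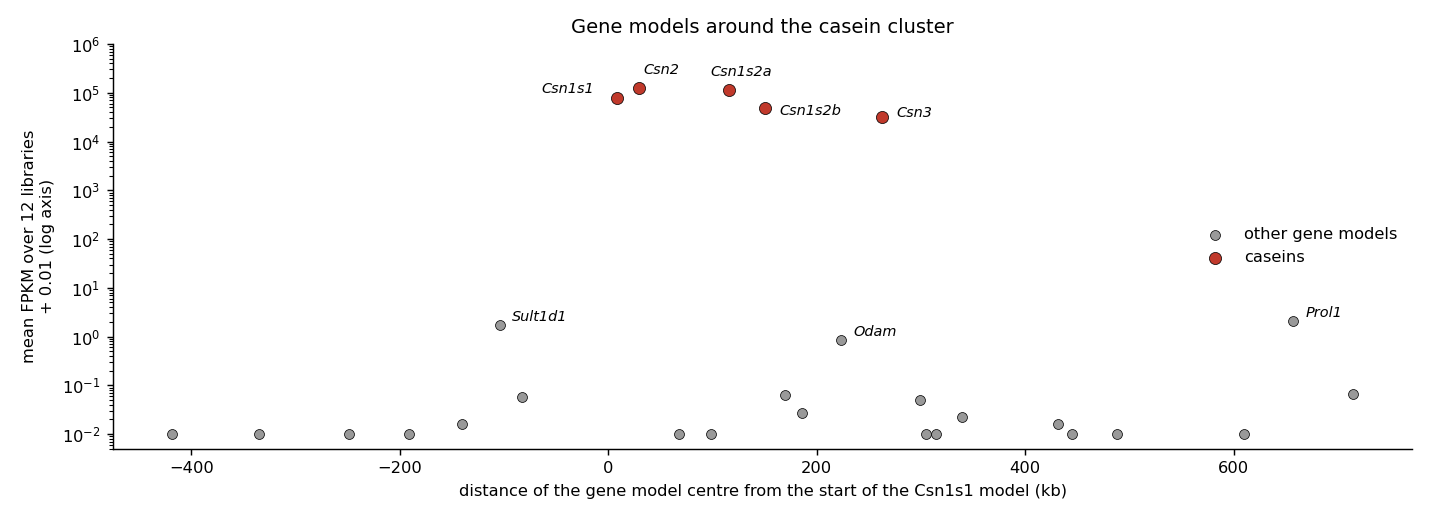
Mean FPKM over 12 libraries (plus 0.01, log axis) of the 27 gene models around the casein genes against the distance from the start of Csn1s1 in kb. The 5 caseins stand at 32520 FPKM or more, while the 22 other models, 5 of them between the caseins, stay at or below 2.08 FPKM.

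The genes known to act on casein transcription were called higher no more often than all genes on the deposited scale. Of 12 tested genes of prolactin signaling and casein transcription (Prlr, the prolactin receptor, shares a row of the table with other genes and was not analysed here), 8 were higher and 1 lower on day 3 in JNK KO glands and 10 higher and 0 lower in JNK WT glands, beside 80.0% of all genes higher in JNK KO and 91.5% in JNK WT glands. The share of all genes lower was 1.37% in JNK KO and 1.34% in JNK WT glands. The medians of the list were 1.21 in JNK KO and 2.30 in JNK WT glands, beside 1.68 and 2.37 over all genes. After scaling 1 was higher and 2 lower in JNK KO glands (11.3% higher and 9.87% lower of all genes), and 2 higher and 4 lower in JNK WT glands (19.1% higher and 16.4% lower of all genes). Cebpb, which encodes C/EBP-beta, rose by day 3 on both scales, by 5.07 in JNK KO and 5.55 in JNK WT glands as deposited and by 3.30 in JNK KO and 3.06 in JNK WT glands after scaling (adjusted p of at most 0.00049). Elf5 and Nr3c1, the glucocorticoid receptor gene, named after their values were seen, had negative changes after scaling. Elf5 changed by -0.81 in JNK KO (adjusted p = 0.060) and -2.24 in JNK WT glands (adjusted p = 0.00022). Nr3c1 changed by -2.19 in JNK KO (adjusted p = 0.0013) and -1.74 in JNK WT glands (adjusted p = 0.0030). As deposited, Elf5 was higher in JNK KO glands (0.97, adjusted p = 0.0076), and the other changes of these genes did not pass. Id2, an inhibitor of helix-loop-helix factors, rose by 2.66 in JNK KO glands as deposited and did not pass after scaling (0.89, adjusted p = 0.091), and Ghr, the growth hormone receptor, rose by 3.32 in JNK WT glands as deposited and by 0.82 after scaling. Between genotypes on day 3, 3 of the 12 were lower in JNK KO glands, beside 5.62% of all genes. The median of the list was -0.43, beside -0.48 over all genes. The 3 were Socs2, a feedback inhibitor of growth hormone and prolactin signaling (-2.22, adjusted p = 0.0021), Ghr (-1.30, adjusted p = 0.027) and Ybx1, a cold-shock domain protein (-0.75, adjusted p = 0.041). Of the 3, Socs2 passed after scaling (-1.70, adjusted p = 0.0096), where 0.117% of all genes were lower. Its change by day 3 in JNK WT glands turned with the scale, being 1.42 as deposited and -1.06 after scaling, whereas in JNK KO glands Socs2 was lower on both (-0.84 as deposited and -2.58 after scaling).

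Among 10 tested of 12 listed genes of casein phosphorylation, calcium and phosphate supply and casein breakdown, 5 were higher and 2 lower on day 3 in JNK KO glands and 6 higher and 2 lower in JNK WT glands. Of all genes, 80.0% were higher and 1.37% lower in JNK KO glands, and 91.5% higher and 1.34% lower in JNK WT glands. After scaling 1 was higher and 4 lower in JNK KO glands (11.3% higher and 9.87% lower of all genes). In JNK WT glands 3 were then higher and 3 lower (19.1% higher and 16.4% lower of all genes). Atp2b2, the calcium pump that moves calcium into milk, was lower on day 3 (-5.54 in JNK KO and -6.49 in JNK WT glands), as was Slc34a2, a sodium-phosphate cotransporter (-4.49 in JNK KO and -5.81 in JNK WT glands, adjusted p of at most 0.00066 for both genes), and both also fell after scaling. The JNK WT values include library 1 of day 0, which was low in both genes. On the deposited scale the largest rises in the list were Plat, tissue plasminogen activator (2.75), and Plau, urokinase (2.27), in JNK KO glands, and Plau (4.03) and Ctsl, cathepsin L (3.85), in JNK WT glands. After scaling Plau and Ctsl rose in JNK WT glands (1.60 and 1.35). For JNK KO glands Plat rose after scaling (1.11, adjusted p = 0.048), whereas Plau did not pass (0.55, adjusted p = 0.41). On day 3, 2 of the 10 were lower in JNK KO than in JNK WT glands, beside 5.62% of all genes. These were Ctsl (-1.38, adjusted p = 0.019) and Ctsb, cathepsin B (-1.39, adjusted p = 0.023). After scaling neither passed (-0.88, adjusted p = 0.091, and -0.89, adjusted p = 0.087). The deposited median of the list was -0.48, the same as over all genes. Plg, the plasminogen gene, was at 0 in every library, and Ctsd, cathepsin D, which shares its row with another gene, was not analysed here.

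Across the 12 libraries the log2 levels of the caseins ran together, with Pearson r between 0.90 (Csn2 with Csn1s2b) and 0.99 (Csn1s1 with Csn1s2a) over the 10 pairs. These r describe 4 groups that share the fall between days, and no test was made. Among 11970 gene models with a mean of at least 1 FPKM, the 5 whose log2 values were most like the log2 casein sum were Olah (r = 0.97), Cidea (0.97), Glycam1 (0.96), Ccl28 (0.96) and Gyk (0.95), against 0.96 to 0.99 for the single caseins. Olah encodes the thioesterase that releases medium-chain fatty acids in milk fat synthesis, and averaged 68.7 ± 5.6 FPKM in JNK KO glands on day 3, against 315 ± 39.97 FPKM on day 0, and 10.5 ± 5.1 FPKM in JNK WT glands on day 3, against 391 ± 89.0 FPKM on day 0. Cidea, a lipid droplet protein of milk fat secretion, averaged 141 ± 32.8 FPKM in JNK KO glands on day 3, against 599 ± 85.3 FPKM on day 0, and 67.6 ± 13.1 FPKM in JNK WT glands on day 3, against 613 ± 21.9 FPKM on day 0. In each of the 5 genes, every JNK KO library of day 3 lay above the JNK WT libraries of day 3. Each also lay below all day 0 libraries, as in the caseins. Because the 5 were chosen for their likeness to the casein sum over these same libraries, this order is not a separate result. Glycam1, a mucin-like milk protein, averaged 8306 ± 5130 FPKM in JNK KO glands and 417 ± 248.6 FPKM in JNK WT glands on day 3, and Ccl28, a mucosal chemokine, 1.44 ± 0.15 FPKM in JNK KO and 0.27 ± 0.15 FPKM in JNK WT glands. Gyk, glycerol kinase, averaged 9.88 ± 4.83 FPKM in JNK KO and 4.66 ± 0.10 FPKM in JNK WT glands on day 3.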

How the data were processed

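Reads were trimmed, aligned to GRCm38 with Bowtie2 and TopHat2 2.0.14 and quantified with Cufflinks 2.2.1 by the authors, who deposited 1 table of FPKM for 12 libraries. Columns were matched to groups by name, and their own numbers name the libraries here, since they carry no link to the numbered samples. Columns that hold the fold changes and p-values of the authors' own Cuffdiff comparisons were not used. Of 37756 gene models, 2 without FPKM were left out.

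The 14512 genes that reached 0.5 FPKM in 3 or more libraries were tested on log2(FPKM + 0.1), a scale that understates changes of low genes, with limma 3.58.1 in R 4.3.3 (4 group means, mean-variance trend, 8 residual and 4.03 prior degrees of freedom, two-sided, Benjamini-Hochberg adjustment over all genes). A gene was called at an adjusted p under 0.05. Shares and ratios within libraries were tested by exact two-sided permutation. For median ratio scaling, each gene was set against its geometric mean over libraries, and the median of these ratios was the divisor of a library. Scripts were tested on simulated data. FPKM do not tell how deeply a library was sequenced: ratios of the lowest values to those of JNK KO day 3 library 3 peaked between -0.33 and 0.33 on the log2 scale, without clear steps. The members, lists and tests were chosen with earlier results of these data known. By the rule for named genes, the text names the 5 caseins, Mapk8, Mapk9, Wap, Lalba, Krt8, Krt18, neighbours within 500 kb with a mean of at least 1 FPKM, list members that passed on day 3 between genotypes or had the 2 largest changes per direction, and the 5 genes most like the casein sum. Alternatives were other pseudocounts, filters, scalings and fits and leaving out each library. The study gives 3 mice per group, and p-values measure only the spread between these libraries.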

Additional observations from a re-analysis of the deposited data

How the results depend on the processing

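The 5 declines in JNK WT glands were called under every alternative. In JNK KO glands 4 caseins were called, with 3 to 5 on leaving out single libraries and 2 without a filter on low values, where Csn3 (adjusted p = 0.18) and Csn1s2a (adjusted p = 0.061) no longer passed. Csn3 also did not pass when only the groups compared were fitted (adjusted p = 0.088), while Csn2 passed under upper quartile scaling (adjusted p = 0.041), with a common total without milk protein genes (adjusted p = 0.013), without the variance trend (adjusted p = 0.028) and with library weights (adjusted p = 0.017). For JNK KO minus JNK WT on day 3, 1 casein was called, with 0 to 1 on leaving out single libraries, 2 with a pseudocount of 1, without the variance trend or with library weights, and 0 with a pseudocount of 0.01, without the filter, or under median ratio scaling, upper quartile scaling or a common total without milk protein genes. The cause was not tested. No casein was called on day 0 or in the interaction under any alternative.

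Uncalled day 0 differences turned sign. Csn1s1 was -0.10 under median ratio scaling, -0.019 under upper quartile scaling and -0.16 with a common total without milk protein genes, and -0.12 without library 1 of JNK WT. Csn3 was -0.067 under median ratio scaling and -0.13 with the common total, and ranged from -0.054 (without library 2 of JNK WT) to 0.31 on leaving out single libraries. Csn1s2b was 0.040 with library weights and ranged from -0.70 to 0.036 (without library 1 of JNK WT). Leaving out single libraries, the day 0 difference in casein share ranged from -6.25 to 0.15 points, the difference between genotypes in the casein sum to Lalba from -0.25 to 0.0017 (the highest without library 2 of JNK WT day 0 in both), and the difference of changes in Csn1s2a to Csn2 from -0.26 to 0.34.

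Against summed casein, Csn3 was higher on day 3 by 1.17. On leaving out single libraries, the genotype difference ranged from -0.45 to -0.24 for Csn1s1 to Csn2, from -0.60 to -0.30 for Csn1s2a to Csn2, from -0.86 to -0.51 for Csn3 to Csn2, from -0.82 to -0.48 for the casein sum to Wap and from 0.51 to 1.03 for that to the keratins, and the day difference of Csn1s2b to Csn2 from -1.35 to -0.89. No paired analysis was possible because the columns carry no replicate numbers of the labels. Each group has 3 libraries, limma shares information on the spread among genes, and FPKM give no counting error.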
